A study of Mus musculus with 8 samples.

Results

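The oligoadenylate synthetase (OAS) family of the mouse was described by 8 genes, Oas1a, Oas1b, Oas1c, Oas1g, Oas2, Oas3, Oasl1 and Oasl2. They were chosen by name, as the rows of the deposited count table that carry these symbols, and make up 8 of its 24537 genes. RNA had been sequenced from EpCAM-positive cells, sorted by FACS (fluorescence-activated cell sorting) from enzyme-digested pancreatic tumours of 8 mice, with 1 library per tumour. The 4 tumours labelled KO carried 2 floxed alleles of Lifr (f/f), the receptor subunit for the cytokine LIF. The label WT covers 4 tumours of unequal genotype, since WT replicates 1 and 2 were f/+, with 1 floxed allele, and WT replicates 3 and 4 were +/+. Both groups shared the alleles KrasLSL-G12D/+, Trp53f/f and Rosa26LSL-Luc, the Pdx1-Cre transgene, the FVB/NJ strain and an age of 44 to 49 days. Pdx1-Cre acts in pancreatic epithelium, so other cells that passed the sort would keep their Lifr alleles. The comparison addresses what changes in the transcriptome of the sorted cells when Lifr is targeted.

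OAS proteins sense double-stranded RNA. The active enzymes bind it and join ATP into short oligoadenylates with an unusual linkage, which act as second messengers of the antiviral response. Type I and type III interferons induce the genes through a transcription factor complex that binds GAAA repeats called interferon-stimulated response elements. Oas1a, Oas1g, Oas2 and Oas3 code for active synthetases. Oas1b is the flavivirus resistance gene, which carries a premature stop in many laboratory strains. Oasl2 joins synthetase activity to ubiquitin-like domains, and Oasl1 lacks the activity and inhibits translation of Irf7 mRNA.

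All 8 genes lie on chromosome 5 in 2 clusters (mm10, positions of the transcripts kept in the count table). Oasl2 (114896934 to 114912245, plus strand) and Oasl1 (114923240 to 114937911, plus strand) span 41.0 kb. The other cluster begins 5792 kb further along and spans 177 kb. It holds Oas2 (120730333 to 120749848), Oas3 (120753098 to 120777659), Oas1c (120800199 to 120812514), Oas1g (120876142 to 120887613) and Oas1a (120896257 to 120907525) on the minus strand. Oas1b (120812635 to 120824160) is on the plus strand, and 120 bases separate its start from that of Oas1c.

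RefSeq promoter windows, 250 bases before and 50 after the start (GRCm38.p6, the mm10 assembly), were matched for 6 of the 8 members, and Oas2 and Oas1b were not matched. The response element, searched on both strands as GAAA, any 2 bases and GAAA again, was found in 4 of these 6 windows and in 1131 of 32851 windows of the table (3.44%). The STAT-type palindrome TTCNNNGAA was in 1 of the 6, that of Oas1a, and in 2726 of 32851 (8.30%). The 120 bases before the start of the 4 genes with such a match are shown, 5′ to 3′ along the minus strand, to let their elements be compared, with the matches in capitals. They lie at chr5:120907526-120907645 (Oas1a), chr5:120887614-120887733 (Oas1g), chr5:120812515-120812634 (Oas1c) and chr5:120777660-120777779 (Oas3).
Oas1a: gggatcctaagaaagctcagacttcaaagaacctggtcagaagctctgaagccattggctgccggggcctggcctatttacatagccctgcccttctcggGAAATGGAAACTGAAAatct
Oas1g: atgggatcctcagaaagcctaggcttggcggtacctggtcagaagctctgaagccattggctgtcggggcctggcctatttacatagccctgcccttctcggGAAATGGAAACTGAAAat
Oas1c: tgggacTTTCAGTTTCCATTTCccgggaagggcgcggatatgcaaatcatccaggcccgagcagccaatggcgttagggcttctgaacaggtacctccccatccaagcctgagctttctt
Oas3: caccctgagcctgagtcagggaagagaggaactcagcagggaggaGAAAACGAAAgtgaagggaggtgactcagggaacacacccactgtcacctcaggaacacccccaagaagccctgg

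Oas1a and Oas1g carried the same run of 16 bases, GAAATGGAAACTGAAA, which holds 2 overlapping matches. These matches begin 20 and 14 bases before the start in Oas1a, and 18 and 12 bases before it in Oas1g. Over the whole window the 2 promoters were 85.3% identical. The run in Oas1c, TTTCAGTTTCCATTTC, is the reverse complement of that run, and its matches begin 114 and 108 bases before the start on the opposite strand. Since Oas1b starts close by in the other direction, the same bases (120812613 to 120812628) lie 22 to 7 bases before the start of the Oas1b transcript. Oas3 had 1 match, beginning 75 bases before its start. A match describes letters in these windows and is not a measured binding site.

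KO libraries totalled 14938875 to 22698340 counts and WT libraries 16196148 to 21255385 counts. Lifr was at 183 ± 34.5 CPM (counts per 1000000, TMM-scaled) in the tumours labelled KO and at 97.8 ± 22.2 CPM in those labelled WT (SD, n = 4 each). Its log2 fold change was 0.90 ± 0.19 (SE, edgeR adjusted p = 0.0121). The targeted gene was thus higher where the label says KO. Counts run over the whole transcript and the labels name no floxed exon, so its deletion could not be checked and directions between the groups rest on the labels. Epcam, the antigen of the sort, was at 421 ± 57.7 CPM in tumours labelled KO and 775 ± 96.5 CPM in those labelled WT (SD, n = 4 each). Of 14728 genes tested with edgeR's quasi-likelihood test, 3216 passed a Benjamini-Hochberg adjusted p of 0.05 with no fold limit (21.8%), of which 1630 were higher (11.1%) and 1586 lower (10.8%). Higher genes made up 50.7% of the calls, in place of 22.5% with library totals alone as scaling.

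All 8 members passed the filter on low counts. Oas2 and Oas1a rose in the tumours labelled KO, and no member fell. This is 2 of 8 members called, near the 21.8% of all genes, so the count alone is no result about the family. The same 2 members had groups that did not overlap, as did 25.5% of all tested genes. The mean was higher in the tumours labelled KO for all 8 members, though Oas1c was lower with library totals alone and on the FPKM values. The median log2 fold change of the 8 members was 1.36, beside 0.011 over all tested genes, and 6 members had an unadjusted p under 0.05, beside 36.0% of all tested genes. In sorted bulk samples like these, more cells of a type and more RNA per cell cannot be told apart.

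Oas2, a synthetase built of 2 joined OAS units, was the most abundant member in the tumours labelled KO and had the largest log2 fold change of the 8, except with the macrophage list as a term, where Oas3 did. It was at 126, 133, 88.0 and 34.4 CPM in KO replicates 1 to 4, and at 14.5, 20.2, 6.32 and 28.4 CPM in WT replicates 1 to 4. KO replicate 4 lay close above WT replicate 4, and the groups did not overlap. The means were 95.4 ± 45.3 CPM in KO and 17.3 ± 9.31 CPM in WT tumours (SD, n = 4 each), a 5.51-fold difference. The log2 fold change was 2.46 ± 0.52 (SE, 95% interval 1.28 to 3.65, edgeR adjusted p = 0.0130).

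Oas1a, a synthetase of a single OAS unit, was at 24.9, 31.0, 20.2 and 10.8 CPM in KO replicates 1 to 4. In WT replicates 1 to 4 it was at 6.25, 8.76, 5.78 and 9.72 CPM. KO replicate 4 was again the lowest of its group, a little above WT replicate 4. The means were 21.7 ± 8.54 CPM in KO and 7.63 ± 1.91 CPM in WT tumours (SD, n = 4 each), and the log2 fold change was 1.51 ± 0.32 (SE, 95% interval 0.78 to 2.24, edgeR adjusted p = 0.0129).

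Oas1g, its neighbour and near copy, was at 8.37, 6.89, 4.51 and 1.97 CPM in KO replicates 1 to 4, and at 1.77, 2.75, 1.08 and 2.53 CPM in WT replicates 1 to 4. KO replicates 1 to 3 lay above every WT tumour, while KO replicate 4 lay inside the WT range. The log2 fold change was 1.42 ± 0.47 (SE, 95% interval 0.36 to 2.48) and was not called (edgeR adjusted p = 0.0606). The values of Oas1a and Oas1g are uncertain as separate values. In GENCODE M21 transcripts, 57.6% of the 50-base windows of Oas1a and 45.7% of those of Oas1g also occur in another gene, for the most part in each other, and 40.9% and 31.2% of their 100-base windows do. Read length and the handling of reads with several positions are not given in the sources used here.

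Oas3, whose product is the largest of the family and favours long double-stranded RNA, divided the tumours most sharply. It was at 15.9, 14.7, 15.6 and 3.28 CPM in KO replicates 1 to 4, and at 2.14, 10.5, 2.33 and 2.53 CPM in WT replicates 1 to 4. One tumour in each group stood apart from the other 3: KO replicate 4 was low and WT replicate 2 was high. The log2 fold change was 1.49 ± 0.65 (SE, 95% interval 0.0053 to 2.97) and was not called (edgeR adjusted p = 0.138). Without WT replicate 2 it was 2.40 and was called (edgeR adjusted p = 0.0213).

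The OAS-like genes had the same high KO tumours. Oasl2 was at 53.4, 61.6, 58.9 and 14.9 CPM in KO replicates 1 to 4, and at 12.3, 35.8, 7.80 and 20.6 CPM in WT replicates 1 to 4. Here KO replicate 4 was below both WT replicate 2 and WT replicate 4. Its log2 fold change was 1.30 ± 0.54 (SE, 95% interval 0.070 to 2.53, edgeR adjusted p = 0.120). Oasl1 was at 28.6, 24.9, 25.4 and 9.50 CPM in KO replicates 1 to 4, and at 10.6, 15.4, 9.50 and 10.4 CPM in WT replicates 1 to 4. KO replicate 4 was no higher than the lowest WT tumour at the precision shown. The log2 fold change of Oasl1 was 0.94 ± 0.32 (SE, 95% interval 0.21 to 1.67, edgeR adjusted p = 0.0696). Neither gene was called with all tumours, and without KO replicate 4 both were (Oasl1 1.18, edgeR adjusted p = 0.00938, and Oasl2 1.59, edgeR adjusted p = 0.0445). Oas1g was called in the same setting, at 1.69 (edgeR adjusted p = 0.0199), and Oasl2 also without WT replicate 2, at 1.80 (edgeR adjusted p = 0.0495).

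The divergently placed pair Oas1b and Oas1c showed the smallest differences. Oas1b was at 4.01, 4.98, 5.07 and 2.29 CPM in KO replicates 1 to 4, and at 2.08, 3.96, 2.42 and 2.65 CPM in WT replicates 1 to 4. KO replicates 1 to 3 were above every WT tumour, the first of them by little. Its log2 fold change was 0.55 ± 0.31 (SE, 95% interval −0.15 to 1.25, edgeR adjusted p = 0.237). Oas1c was at 4.56, 5.93, 4.03 and 5.10 CPM in KO replicates 1 to 4, and at 4.32, 4.52, 6.14 and 3.95 CPM in WT replicates 1 to 4. The highest Oas1c level was in WT replicate 3, the tumour that was lowest of all for 5 other members. Its log2 fold change was 0.050 ± 0.20 (SE, edgeR adjusted p = 0.883), with a 95% interval of −0.41 to 0.51. This difference turned to −0.13 with library totals alone as scaling. Oas1c shares 227 exon bases (9.44%) with the antisense gene Gm43069. Counts were made on the plus-strand setting, but the libraries' strandedness is not stated. How far reads of the 2 genes were told apart is therefore not known.

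**Figure D1:**
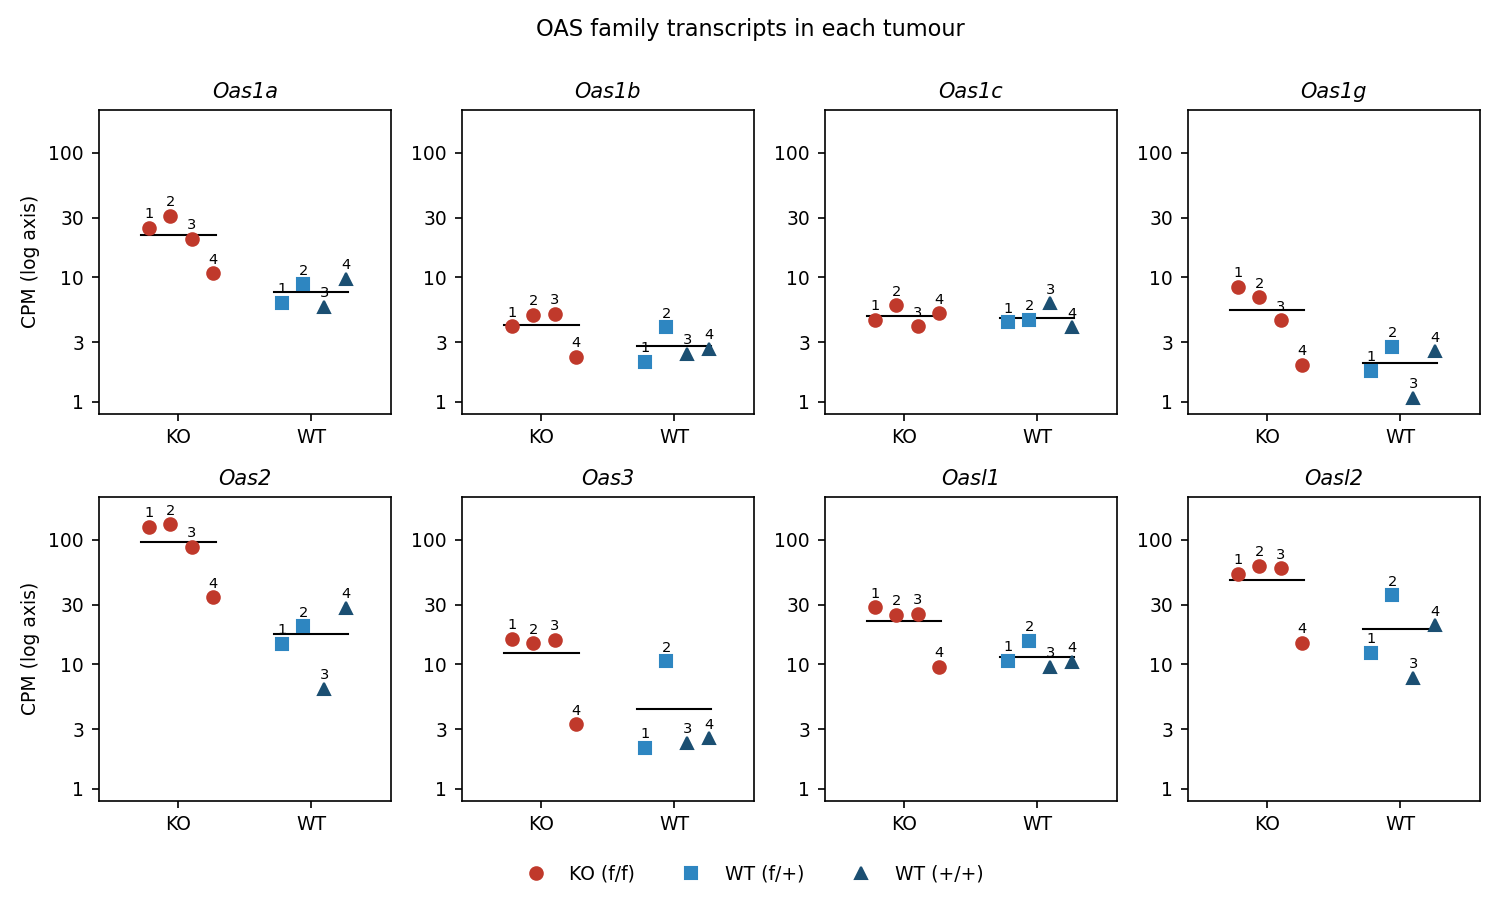
CPM of each of the 8 OAS genes (log axis) in the KO tumours (red circles, f/f) and the WT tumours (blue squares f/+, dark triangles +/+), with replicate numbers and the group mean as a line. KO replicates 1 to 3 lie above every WT tumour in 7 of the panels, Oas1c being the exception, and KO replicate 4 lies within the WT range in 6. KO replicate 4 was set apart after its values were seen, and the share of all genes with this pattern was not counted.

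**Figure D2:**
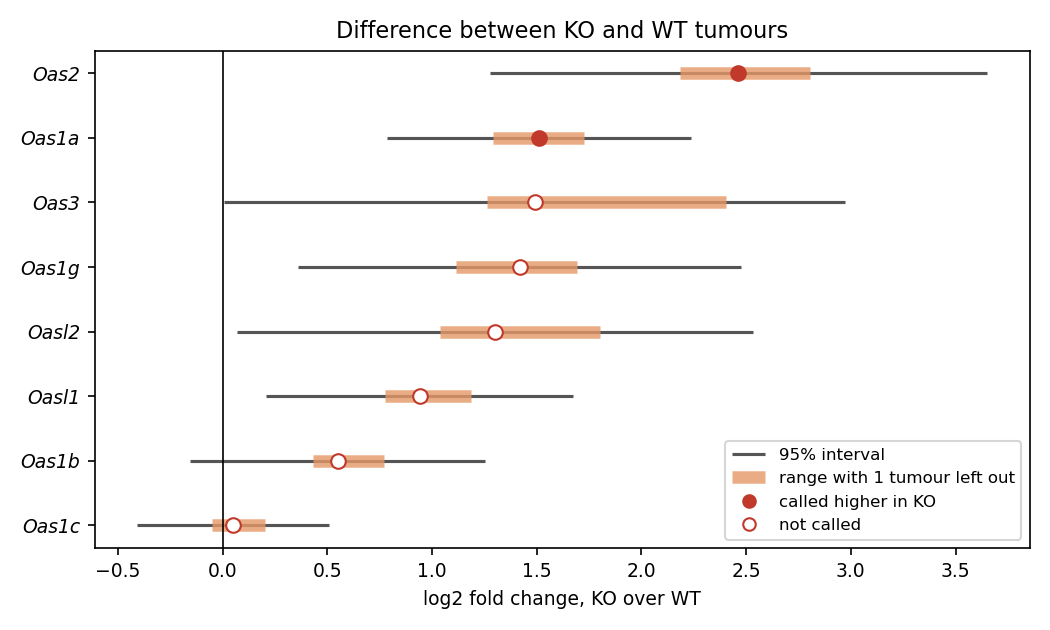
Log2 fold change of each OAS gene, KO over WT, with its 95% interval (line) and the range with any 1 tumour left out (bar), filled where the gene was called. Oas2 (2.46) and Oas1a (1.51) are called, and the interval of Oas1b and of Oas1c includes 0.

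The tumours of 1 label were not alike across the family. KO replicate 4 was the lowest KO tumour for 7 members (all but Oas1c) and lay within the range of the WT tumours for 6 (all but Oas1a and Oas2). WT replicate 2 was the highest WT tumour for 5 members and was above KO replicate 4 for 5, Oas1b, Oas1g, Oas3, Oasl1 and Oasl2. Summed over the 8 members, the level was 266, 283, 222 and 82.2 CPM in KO replicates 1 to 4, and 54.0, 102, 41.4 and 80.8 CPM in WT replicates 1 to 4. By this sum KO replicate 4 stood with WT replicate 4, below WT replicate 2.

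**Figure D3:**
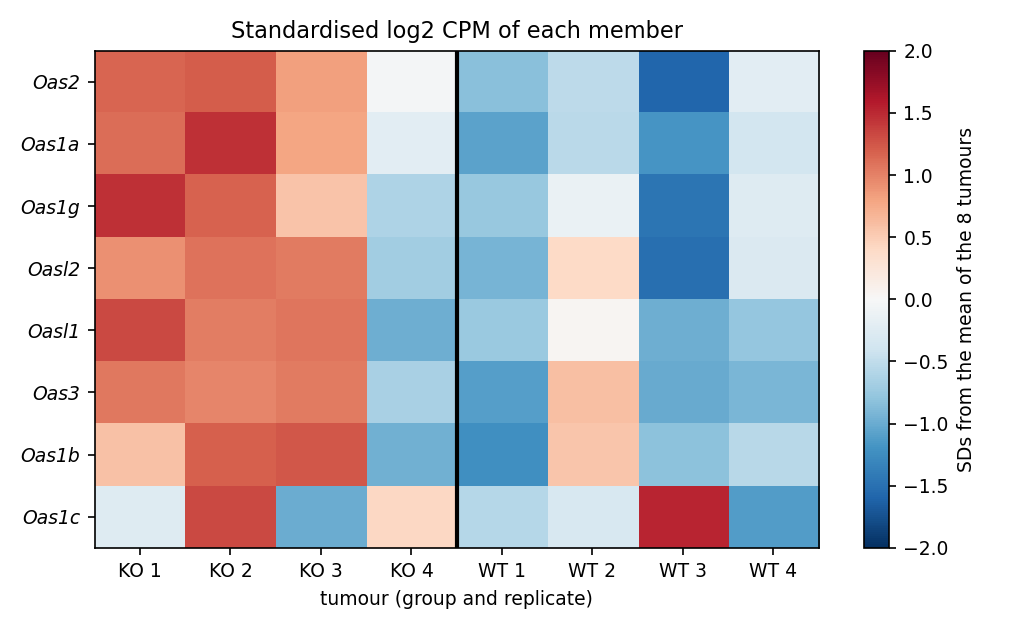
Log2 CPM of each member in each tumour, in standard deviations from that member's mean over the 8 tumours (red above, blue below), with KO tumours left of the line. KO replicates 1 to 3 are above the mean for every member but Oas1c, while KO replicate 4 is near or below it for these 7. WT replicate 2 is moderately above it for Oas3 (0.61), Oas1b (0.55) and Oasl2 (0.41).

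Over the 8 tumours, the 21 pairs of members without Oas1c had a Pearson correlation of log2 CPM between 0.758 and 0.976, and between 0.642 and 0.948 after the group means were removed. Pairs with Oas1c were between −0.24 and 0.021, and between −0.49 and −0.14 with the group means removed. These values describe 8 tumours that share a group, a library and a mix of cells with each pair of genes. Among the other 7, grouped after their values were seen, Oas1a, Oas1g and Oas2 followed each other (0.947 to 0.976), and Oas1a and Oas1g can share reads. Oas1b, Oas3, Oasl1 and Oasl2 did so too (0.917 to 0.958), and pairs across the sets were between 0.758 and 0.938. The sets differ only in part in WT replicate 2. It was the highest WT tumour for all of the second set and also for Oas1g, though not for Oas1a and Oas2. Oas1g ran with Oasl2 (0.938) and Oasl1 (0.931) as well.

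**Figure D4:**
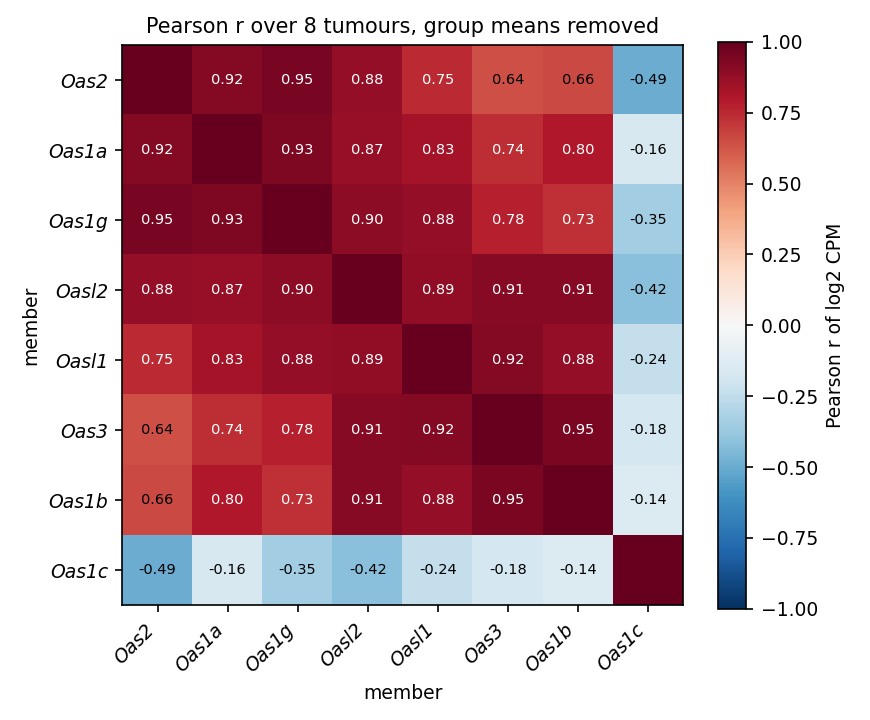
Pearson correlation of log2 CPM between members over the 8 tumours after subtraction of each group's mean, from blue (−1) to red (1). Oas1c is negative with every other member, between −0.49 and −0.14, and the other pairs lie between 0.642 and 0.948.

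Levels of different genes were compared per kilobase of the kept transcript. In KO tumours the order was Oas2 (24.2 ± 11.5 CPM per kilobase), Oasl2 (15.1 ± 6.98), Oas1a (11.6 ± 4.55) and Oasl1 (10.5 ± 4.05), followed by Oas3, Oas1g, Oas1b and Oas1c at 2.15 to 2.64 CPM per kilobase. Oas2 exceeded Oasl2 in 4 of 4 KO tumours, and Oasl1 exceeded Oas3 in 4 of 4, by 7.82 ± 2.77 CPM per kilobase (SD, n = 4). The order of the remaining neighbours held in 1 to 3 of the 4 KO tumours. In WT tumours Oasl2 came first (6.12 ± 3.94 CPM per kilobase), then Oasl1 (5.43 ± 1.26), Oas2 (4.40 ± 2.36) and Oas1a (4.06 ± 1.02), with none of these 3 steps kept in all 4 tumours. Oas1c (2.08 ± 0.425 CPM per kilobase), Oas1b (1.52 ± 0.448), Oas1g (0.985 ± 0.370) and Oas3 (0.932 ± 0.872) followed, and only Oas1a over Oas1c and Oas1b over Oas1g held in 4 of 4 WT tumours.

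Oas2 took a different share of the family in the groups. Its share of the members' summed level per kilobase was 36.6%, 36.1%, 30.2% and 30.2% in KO replicates 1 to 4, and 18.1%, 14.1%, 9.60% and 25.0% in WT replicates 1 to 4. The groups did not overlap in this share, and KO replicate 4, low in total, had the same share as KO replicate 3. The ratio of Oas2 to Oasl2 per kilobase was 1.18 to 1.88 in KO tumours and 0.447 to 1.10 in WT tumours. In the deposited FPKM values (reads per kilobase of transcript and per 1000000 reads), which use an Oas2 transcript of 3851 bases in place of the 3943 bases in the count table, Oas2 was at 12.9 ± 5.98 in KO and 2.67 ± 1.43 in WT tumours (SD, n = 4 each).

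Within the label WT, no member was called between f/+ and +/+ tumours (edgeR, 3 genotypes in 1 fit), where 1 of 15284 genes was called (0.00654%). No member had an unadjusted p under 0.05, beside 782 of the 15284 genes. DESeq2 called 51 genes in this contrast. The widest difference was in Oas3, with means of 6.33 CPM in f/+ and 2.43 CPM in +/+ tumours (log2 difference 1.38 ± 0.87 SE, edgeR adjusted p = 0.986). Oasl2 had means of 24.1 CPM in f/+ and 14.2 CPM in +/+ tumours (0.77 ± 0.76), and both rest on WT replicate 2, without which Oas3 was at −0.18 and Oasl2 at −0.19. Against the f/+ tumours alone Oas2 differed by 2.46 and Oas1a by 1.53 in f/f tumours (edgeR adjusted p = 0.0633 and 0.0566), with 13.3% of all genes called. Against the +/+ tumours alone they differed by 2.47 and 1.49 (edgeR adjusted p = 0.0787 and 0.0765), with 6.79% of all genes called. These contrasts share the f/f tumours, and no member was called in either. Against f/+ tumours 2 members had an unadjusted p under 0.05, beside 4633 of 15284 genes. Against +/+ tumours 6 members did, beside 4119 of 15284 genes.

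Abce1 and Pde12, which act on the oligoadenylate pathway, were not called. Abce1, an ATP-binding protein of ribosome recycling that also limits this pathway, was at 128 ± 12.7 CPM in KO and 123 ± 12.1 CPM in WT tumours, and Pde12, a phosphodiesterase that degrades oligoadenylates, was at 28.2 ± 2.25 CPM in KO and 26.4 ± 1.85 CPM in WT tumours (SD, n = 4 each). Their log2 fold changes were 0.065 ± 0.098 and 0.091 ± 0.088 (SE, edgeR adjusted p = 0.675 and 0.493). The other Oas1 paralogues were at or near 0: Oas1d and Oas1h had no count, Oas1e had 1 and Oas1f had 5 over all 8 tumours.

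The interferon genes themselves had almost no counts. Of 21 interferon genes in the table none reached the test and 15 had no count in any tumour. Their summed level was 0 to 0.149 CPM in KO tumours and 0.0521 to 0.279 CPM in WT tumours. Ifnb1, interferon beta, had 3 counts in all.

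Of 12 interferon receptor and JAK-STAT genes, 9 rose, 1 fell and 2 were not called, with a median log2 fold change of 0.51, beside 11.1% of all genes higher and 10.8% lower. Ifnar2, a chain of the type I interferon receptor, was at 99.5 ± 8.25 CPM in KO and 55.1 ± 10.6 CPM in WT tumours (log2 fold change 0.85 ± 0.13 SE, edgeR adjusted p = 0.0057). Il10rb, a chain of the type III interferon receptor, rose by 0.86 ± 0.16, and Stat2, part of the complex that induces the OAS genes, by 0.73 ± 0.14 (edgeR adjusted p = 0.0091 and 0.0104). Ifnlr1, the other chain of the type III receptor, which is largely an epithelial gene, fell by 1.33 ± 0.21 on the log2 scale, with 7.05 ± 1.47 CPM in KO and 17.8 ± 3.68 CPM in WT tumours (edgeR adjusted p = 0.0053).

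Of 8 interferon regulatory factors and negative regulators, 4 rose, none fell and 4 were not called, with a median of 0.59. The 4 were Irf8 (0.74 ± 0.12), a factor of myeloid cells, Irf2 (0.61 ± 0.10), Irf1 (0.45 ± 0.093) and Irf5 (0.60 ± 0.15), with edgeR adjusted p between 0.0057 and 0.0264. Of 10 other double-stranded RNA sensors and effectors, 6 rose and 4 were not called, with a median of 0.40. Dhx58, which codes for the sensor LGP2, was at 29.2 ± 7.10 CPM in KO and 9.87 ± 1.18 CPM in WT tumours (log2 fold change 1.56 ± 0.19 SE, edgeR adjusted p = 0.0044). Zbp1, a nucleic acid sensor, rose by 1.46 ± 0.29, Ifih1, which codes for MDA5, by 0.70 ± 0.11, and the antiviral protein gene Zc3hav1 by 0.41 ± 0.073 (edgeR adjusted p between 0.0050 and 0.0111).

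Of 15 other interferon-stimulated genes, 11 rose and 4 were not called, with a median of 1.34, close to the members' median of 1.36. Their summed level was 242 to 496 CPM in KO and 130 to 237 CPM in WT tumours, lowest among KO tumours in replicate 4 and highest among WT tumours in replicate 2. Mx1, an antiviral GTPase, was at 20.6 ± 5.49 CPM in KO and 5.63 ± 3.09 CPM in WT tumours (log2 fold change 1.87 ± 0.39 SE, edgeR adjusted p = 0.0122). Ifit2, which binds viral RNA and limits its translation, rose by 1.76 ± 0.36, Parp14, an ADP-ribosyltransferase gene, by 1.24 ± 0.20, and Herc6, which codes for the ligase of the ubiquitin-like protein ISG15, by 0.88 ± 0.20 (edgeR adjusted p between 0.0064 and 0.0161).

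The 5 named genes outside the family whose log2 CPM ran most like the members' mean over the 8 tumours were Rtp4, Irgm2, Nme3, Rars2 and Clca3a2. Their Pearson r was 0.982 for Rtp4, 0.982 for Irgm2, an interferon-induced GTPase gene, 0.981 for Nme3, a nucleoside diphosphate kinase gene, 0.980 for Rars2, which codes for the mitochondrial arginyl-tRNA synthetase, and 0.978 for Clca3a2. With group means removed it was 0.947 to 0.976, and their ranks among all tested genes outside the family ran from 2 (Rtp4) to 43 (Rars2). Picked as the highest of all these genes over only 8 tumours, the values are high by selection. These values describe tumours that share a group and a mix of cells. Rtp4, an interferon-induced gene that is also on the list of interferon-stimulated genes, rose by a log2 fold change of 2.11 ± 0.49 (edgeR adjusted p = 0.0181). The other 4 were not called between the groups, with edgeR adjusted p between 0.0654 and 0.124.

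Markers of other cell types moved with the groups. All 16 macrophage markers were tested, and 15 rose and 1 was not called. Their summed level was 29556, 28916, 22789 and 27031 CPM in KO replicates 1 to 4, and 12185, 8942, 8630 and 15631 CPM in WT replicates 1 to 4. Lyz2, Adgre1 and Csf1r of this list all rose, and none of the 16 was at 0. KO replicate 4 lay within the range of the other KO tumours in these markers, and WT replicate 2 was low, unlike in the members' sum. For Oas1a and Oas2, as for the macrophage sum, WT replicate 4 was the highest WT tumour and WT replicate 3 the lowest. Between these, the macrophage sum was higher in WT replicate 1 than in WT replicate 2, and both genes were higher in WT replicate 2. Of 15 epithelial markers, 13 fell and 2 were not called, with a summed level of 3740 to 5201 CPM in KO and 7105 to 9426 CPM in WT tumours.

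Markers of pancreatic acinar cells, which make digestive enzymes, ran differently. None of the 8 was called and none was at 0. Their summed level was 31434, 6390, 19274 and 1417 CPM in KO replicates 1 to 4, and 754, 6740, 274 and 727 CPM in WT replicates 1 to 4. It was high in KO replicates 1 to 3 and WT replicate 2, the 4 tumours in which Oas1b, Oas1g, Oas3, Oasl1 and Oasl2 were also highest. Oas1a and Oas2 were highest in the 4 KO tumours instead. KO replicate 2, highest in the members' sum, was below WT replicate 2 in the acinar sum. Cpa1, an acinar enzyme, was at 2134 ± 1870 CPM in KO and 358 ± 545 CPM in WT tumours (SD, n = 4 each). With a term for acinar markers (their mean log2 CPM) added to the edgeR fit, no member was called. Oas2 was then at 1.64 and Oas1a at 1.05 (edgeR adjusted p = 0.148 and 0.132), while the remaining members lay between −0.013 (Oas1b) and 0.49 (Oas1g) and 2 members had an unadjusted p under 0.05. Over all genes 2264 were called and 4567 of 14728 had an unadjusted p under 0.05. The mean log2 CPM of the macrophage list was 9.34 to 9.57 in KO and 7.85 to 8.69 in WT tumours. As a term in the fit it therefore runs with the labels, and the fit can hardly tell the 2 apart. With it no gene of 14728 was called, 543 having an unadjusted p under 0.05, none of them a member. Oas2 was then at 0.82 ± 1.30, Oas1a at 0.93 ± 0.89 and Oas3 at 3.93 ± 1.87 (log2 fold change ± SE, edgeR adjusted p = 0.9996 for each), and the other members lay between 0.62 (Oas1c) and 1.64 (Oasl2). A further fit left out KO replicate 1 and WT replicate 2, the tumours highest in acinar RNA in their groups. Oas2 was then at 2.38 and Oas1a at 1.51 (edgeR adjusted p = 0.0607 and 0.0567). Oas3 was called at 2.26 (edgeR adjusted p = 0.0482). Since Oas3 was also called without WT replicate 2 alone (2.40, edgeR adjusted p = 0.0213), this call tells nothing of acinar content.

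Of other marker lists, the 8 fibroblast genes had none called. Their summed level was 1640, 4219, 1757 and 760 CPM in KO replicates 1 to 4, and 541, 1113, 407 and 1519 CPM in WT replicates 1 to 4. As in the members' sum, KO replicates 1 to 3 were highest and KO replicate 4 lay within the WT range. The highest WT tumour was replicate 4, where the members' sum had replicate 2. Oas1a and Oas2 ordered the WT tumours as the fibroblast sum did, with replicates 4, 2, 1 and 3 from high to low. For both genes, as for that sum, KO replicate 2 was the highest KO tumour and KO replicate 4 the lowest. The plasmacytoid dendritic cell list had 4 of 5 genes tested and 1 called. Its sum was 56.1 to 623 CPM in KO and 72.6 to 318 CPM in WT tumours and was carried by Klk1, which the pancreas also makes (290 ± 278 CPM in KO and 56.8 ± 95.5 CPM in WT tumours), and Ly6d (51.6 ± 21.2 CPM in KO and 93.8 ± 29.1 CPM in WT tumours, SD, n = 4 each), both named after their values were seen. Siglech, a defining marker, was at 2.13 ± 0.841 CPM in KO and 1.53 ± 0.911 CPM in WT tumours and was not called (edgeR adjusted p = 0.476). The part of these cell types in the differences between the synthetases was not tested. The fits with marker lists, and the fit without KO replicate 1 and WT replicate 2, were added after the data were seen. The marker list terms come from the same libraries as the members, so they cannot separate cell content from the group difference.

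**Figure D5:**
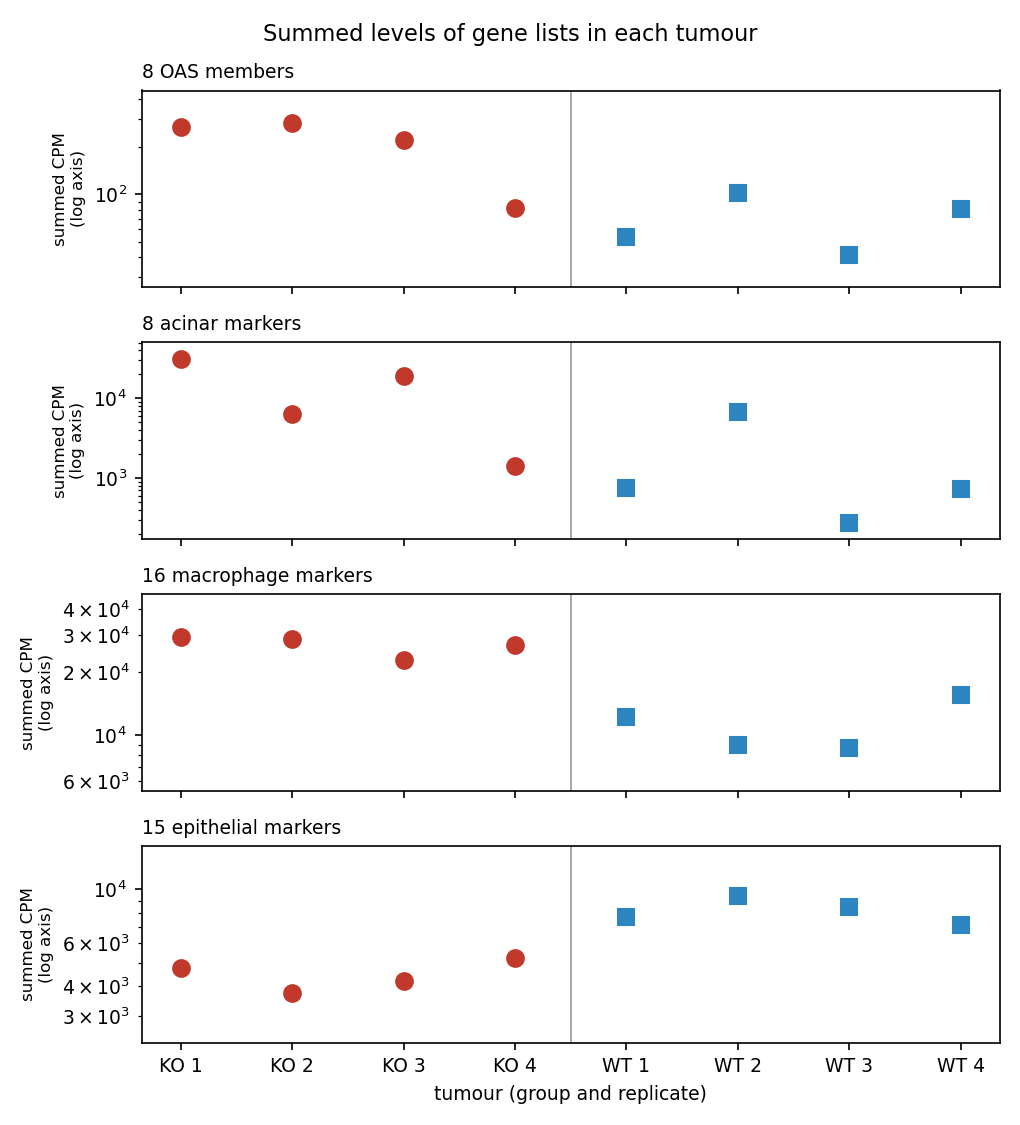
Summed CPM (log axes) of the 8 OAS members, 8 acinar, 16 macrophage and 15 epithelial markers in each tumour, KO left of the line and WT right of it. The OAS and acinar sums are both lowest among KO tumours in replicate 4 and highest among WT tumours in replicate 2, while the macrophage sum is 22789 or more in every KO tumour and 15631 or less in every WT tumour.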

How the data were processed

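Groups came from the sample titles and Lifr genotypes from the labels. Replicate numbers follow the listing order and pair no tumours, and each tumour is labelled as from its own mouse. Build mm10 and the tools STAR 2.4.0k, FastQC 0.11.2, HOMER and edgeR 3.6.8 are listed, per the submitters' processing notes, with no role given. The authors deposited raw counts of tags in exons, made with HOMER's analyzeRepeats.pl on RefSeq transcripts of mm10 with 1 transcript per gene on the plus-strand setting, per the file headers. FPKM values, which the authors deposited as well, were made with analyzeRepeats.pl too, per the file headers, and scale each gene by its kept transcript's length.

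Counts were scaled by TMM and tested with edgeR 4.0.16 in R 4.3.3 (quasi-likelihood test, filterByExpr with a minimum count of 10 and total of 15), adjusting over all 14728 genes at 0.05. Alternatives used DESeq2 1.42.0 and limma 3.58.1 on log2(FPKM + 1) and log2(FPKM + 0.1). CPM are TMM-scaled, log2 fold changes are KO over WT, and correlations used a prior count of 1. The test was also run on simulated data. The members, gene lists and rules were chosen with earlier results of these data known. Named were all members, Lifr, Epcam, up to 4 called genes with the smallest p from each pathway list, the oligoadenylate pathway and paralogue lists, up to 3 of each marker list described, and the 5 most alike genes outside the family. Some named by this rule are not reported here, though list counts include them. Fits with marker lists as a term, and the fit without KO replicate 1 and WT replicate 2, were added after seeing the data.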

Additional observations from a re-analysis of the deposited data

Results flagged for a closer look

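Oas3 had 1 tumour far from the others in each group. In KO replicate 4 it was at 3.28 CPM, while the other 3 KO tumours were at 14.7 to 15.9 CPM. In WT replicate 2 it was at 10.5 CPM, while the other 3 WT tumours were at 2.14 to 2.53 CPM. Both gaps passed Dixon's 95% critical value for 4 samples. They were the only 2 of the 16 groups examined (8 members in KO and in WT) to do so, where chance flags about 1 in 20. The acinar marker sum was 1417 CPM in KO replicate 4 and 6740 CPM in WT replicate 2, the lowest KO and the highest WT value. Its part in these Oas3 values was not tested.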

How the results depend on the processing

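With any 1 tumour left out, Oas2 (2.18 to 2.80) and Oas1a (1.29 to 1.73) were called in all 8 fits. Members called numbered 2 with all tumours and 2 to 5 with 1 left out. They numbered 5 without KO replicate 4, where 2980 of 14919 genes were called. Without WT replicate 2 they numbered 4, where 2698 of 14820 genes were called. DESeq2 called 5 members and 4167 of 14728 genes. Without KO replicate 1 and WT replicate 2, 1 member was called. With only +/+ or only f/+ controls, or with the acinar or the macrophage list as a term, 0 were called. Genes called over the whole table numbered 3216, against 1755 (without KO replicate 2) to 3241 with 1 tumour left out, 2077 without WT replicate 3, 1038 with +/+ and 2036 with f/+ controls only, 1892 without KO replicate 1 and WT replicate 2, and 0 with the macrophage list. Each genotype contrast rests on 2 control tumours. The cause of the other shifts was not tested. With library totals alone 4008 genes were called, 22.5% of them higher, against 50.7% in the TMM fit, and limma on FPKM gave 24.1% and 24.0%; library totals put the median of all genes at −0.17. Oas1c turned to −0.13 with library totals, −0.065 and −0.11 on FPKM with pseudocounts 1 and 0.1, and −0.042 with +/+ controls, and ranged from −0.050 to 0.20 with 1 tumour left out. Oas1b turned to −0.013 with the acinar list. Of the 152 alternative values of the members, 126 kept direction and call, 9 gained a call, 10 lost one and 7 reversed. Between f/+ and +/+ tumours, DESeq2 called 51 genes against 1 by edgeR. Leaving 1 tumour out, which leaves 1 tumour in a genotype assumed to vary like the others, gave −0.37 to 0.37 for Oas1a, −0.28 to 0.64 for Oas1b, −0.48 to 0.16 for Oas1c, −0.16 to 1.06 for Oas1g, −0.71 to 1.45 for Oas2, −0.18 to 2.11 for Oas3 and −0.19 to 1.62 for Oasl2, and Oas1a was 0.0030 with library totals. The order by level per kilobase over all tumours was the same for all 8 members on FPKM. No paired analysis was possible because the titles carry animal numbers that the groups do not share. Oas1b, Oas1c and Oas1g, at 1.08 to 8.37 CPM per tumour, rest on few counts, as does Oas3 in the 3 WT tumours at 2.14 to 2.53 CPM.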
